A study of Mus musculus with 12 samples.

Results

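Collagen chain genes were taken as every row of the expression table whose symbol is made of Col, a type number, the letter a and a chain number. There were 44 of them among the 53341 genes of the table, and 38 passed the filter on low values, 10 or more normalized counts in 3 or more of the 12 libraries, which 18139 genes passed in all. The rule used symbols and level, not any difference between groups. By the structures their chains form, 11 of the 38 were fibrillar, 6 belonged to the basement membrane, 6 were fibril-associated collagens with interrupted helices (FACIT), and 15 were of other kinds. The 6 genes below the filter were Col9a1, Col9a2 and Col19a1, all FACIT genes, and Col6a5, Col6a6 and Col13a1. Their highest value in any library was 9.42 (Col9a2), and none of the 6 reached 10 anywhere. The members that passed most narrowly were Col4a6, at or above 10 in 7 libraries, and Col6a4 and Col26a1, in 8 libraries each.

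The cells were fibroblast-like synoviocytes (the matrix-making cells that line joints) of mice described as SoxC, with synovium as the labelled tissue, and poly(A) RNA was sequenced. SOXC names the transcription factors Sox4, Sox11 and Sox12. There were 4 groups of 3 libraries. The control group received the adenovirus Ade5CMV-eGFP, which carries a green fluorescent protein, and the knockout group (SoxC_KO) received Ade5CMV-Cre, which carries the recombinase that cuts out marked DNA. The groups control_TNF and SoxC_KO_TNF had the same viruses and also recombinant human TNF, an inflammatory cytokine, at 10 ng/mL for 16 h. So all 12 libraries came from cells given an adenovirus, and the knockout is compared with cells given another virus, not with untreated cells. CMV is a promoter active in most cell types, so Cre was not limited to one kind of cell by it. The labels give no age. They leave unsaid whether replicates were separate animals, cultures or repeats of 1 culture, so each p-value reflects only how these libraries spread, and that spread may be technical.

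A collagen is built of 3 chains wound into a triple helix in the endoplasmic reticulum, where hydroxylases and chaperones act on it, and the molecule is trimmed and cross-linked after secretion. Fibrillar collagens (types I, II, III, V and XI among them) form the load-bearing fibrils of connective tissue, FACIT collagens sit on their surface, and type IV forms the network of basement membranes. Type VI forms beaded filaments around cells. Synovial fibroblasts secrete the collagen of the joint lining, and in inflamed joints they are also a source of enzymes that cut it.

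Normalized totals were 19.6 to 23.1 M per library. Sox4 was at 1857 to 4238 normalized counts in control and 548 to 1433 in SoxC_KO, and at 1625 to 3646 in control_TNF and 601 to 1086 in SoxC_KO_TNF, so residual Sox4 transcript was present in every knockout library. The other targeted genes did not separate the untreated groups: Sox11 was at 153 to 272 in control and 26.8 to 175 in SoxC_KO, and Sox12 at 162 to 352 and 194 to 259. With TNF both did, with Sox11 at 138 to 248 in control_TNF and 29.5 to 105 in SoxC_KO_TNF, and Sox12 at 237 to 326 and 86.5 to 159. The 4 libraries numbered 3, 1 from each group, stood apart from the others. The summed level of 6 macrophage and leukocyte markers was 3382 to 3938 in them and 1345 to 2025 in the libraries numbered 1 and 2. Lyz2, Csf1r and Cd14 made up most of that sum, while Ptprc, which marks leukocytes in general, was at 19.1 or less in every library. The 9 fibroblast markers summed to 92380 to 118775 in the libraries numbered 3 and to 115347 to 128383 in the others. Vim was the largest part of that sum in every library, and single markers differed more. Prg4 was at 3540 to 8450 in the libraries numbered 3 and 9853 to 18346 in the others, and Pdgfra at 1462 to 1716 and 2160 to 3919. Cdh11 was at 3085 to 7156 and 8140 to 13448, and Lum at 606 to 1144 and 1153 to 1436. For Thy1, Pdpn, Pdgfrb, Dcn and Vim the ranges overlapped. Liver transcripts reached 532 in control_TNF replicate 2 and 3450 in SoxC_KO_TNF replicate 1 (sum of 5 markers), against 69.8 or less elsewhere. Skeletal muscle myosin Myh4 reached 188 in the first SoxC_KO library and 277 in the first SoxC_KO_TNF library, against 13.3 or less in the other libraries, and Ckm 59.1 and 95.3, against 4.45 or less. These 2 libraries are called those with muscle transcripts below, a choice made after these values were seen. The sum of all 6 muscle markers did not single them out: it was 1188 and 1223 in them, 1285 in SoxC_KO replicate 3 and 377 to 911 elsewhere, with Acta1 as the largest part in every library. None of the 5 tested macrophage and leukocyte markers passed in any comparison of the first fit described below, with 1 mean per group. In that fit 2 of the 9 fibroblast markers passed for the average TNF effect, as did 1.17% of all genes. Markers were not read in the second fit, and Cd14 was higher with TNF in each pair of libraries of the same cells and number. The part of such cells in the results below was not tested.

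Collagen transcripts made up 1.21% to 3.78% of all normalized counts in a library. In control the share was 3.61%, 3.42% and 1.46% in replicates 1, 2 and 3, and in control_TNF 2.67%, 3.10% and 1.32%. In SoxC_KO it was 3.78%, 3.46% and 2.09%, and in SoxC_KO_TNF 2.82%, 2.94% and 1.21%. Within each group the library numbered 3 had the lowest share, and each TNF library had a lower share than the untreated library of the same cells and number, while the groups overlapped. Fibrillar genes gave 76.0% of the collagen counts on average (74.1% to 78.5%), and the 5 most abundant genes, Col1a1, Col1a2, Col3a1, Col5a2 and Col5a1, gave 74.1% together. The basement membrane class gave 8.02%, the FACIT class 5.85% and the others 10.1%.

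**Figure D1:**
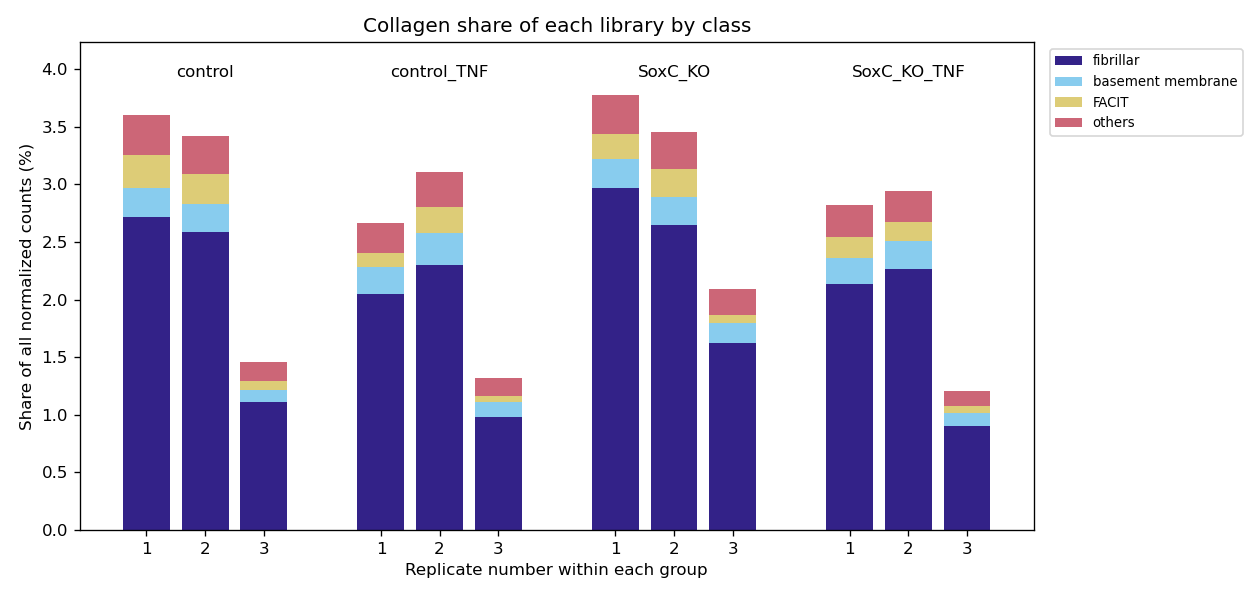
Share of all normalized counts taken by collagen genes in each of the 12 libraries (vertical axis, percent), stacked by class; each bar is 1 library, labelled by its replicate number within its group. The bars numbered 3 are the lowest of each group, at 1.21% to 2.09%, against 2.67% to 3.78% for the others.

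The lower level in the libraries numbered 3 held for 36 of the 38 tested genes, with a median ratio of 0.553 between the mean of those 4 libraries and the mean of the other 8. Over all 18139 genes the median ratio was 0.968, and 52.4% were lower. The genes differed widely in this respect. Col11a1 had a ratio of 0.230, Col6a3 0.249 and Col12a1 0.266, whereas Col10a1 was at 0.983, and Col18a1 (1.08) and Col9a3 (1.41) were higher in the libraries numbered 3. Transcript length differed between them too, at 11.5 kb for Col12a1 and 7.67 kb for Col11a1, against 3.13 kb for Col10a1 and 3.05 kb for Col9a3. Other genes did not follow length, such as Col4a4 (10.1 kb, ratio 0.699) and Col8a1 (5.11 kb, ratio 0.412). The part of transcript length in these ratios was not tested. In bulk samples, fewer cells of a type and less RNA per cell cannot be told apart. Because this difference between replicate numbers was larger than most differences between groups, 2 limma fits are given below. The first, the planned test, has 1 mean per group. The second, called the blocked fit, adds the replicate number as a block, so that libraries of the same number are compared with each other. Its block is shared by all 4 groups, although the check of the numbers as pairs, given below, failed between control_TNF and SoxC_KO_TNF. Both adjust p over all 18139 genes with a threshold of 0.05.

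Levels can be compared between genes only per length, here as normalized counts per kb of the principal transcript. On that scale the mean over the 12 libraries was 24183 for Col1a1, 16684 for Col1a2 and 13090 for Col3a1, the chains of types I and III that make up most fibrils of soft connective tissue. Type V, which sits inside type I fibrils and limits their width, followed with Col5a2 at 10547, Col5a1 at 5513 and Col5a3 at 1347. The highest outside the fibrillar class were Col6a1 at 4327 and Col6a2 at 3475 (type VI), Col4a1 at 3783 and Col4a2 at 2829 (type IV), and Col12a1 at 2614, a FACIT gene. At the low end, Col4a4 was at 1.45 per kb, Col6a4 at 1.63 and Col4a6 at 2.26. Cartilage fibrils are built mainly of type II, and Col2a1 was at 28.2 per kb. In normalized counts not scaled to length, 16 of the 38 had a mean of at least 1000, 10 lay from 100 to 1000 and 12 under 100.

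**Figure D2:**
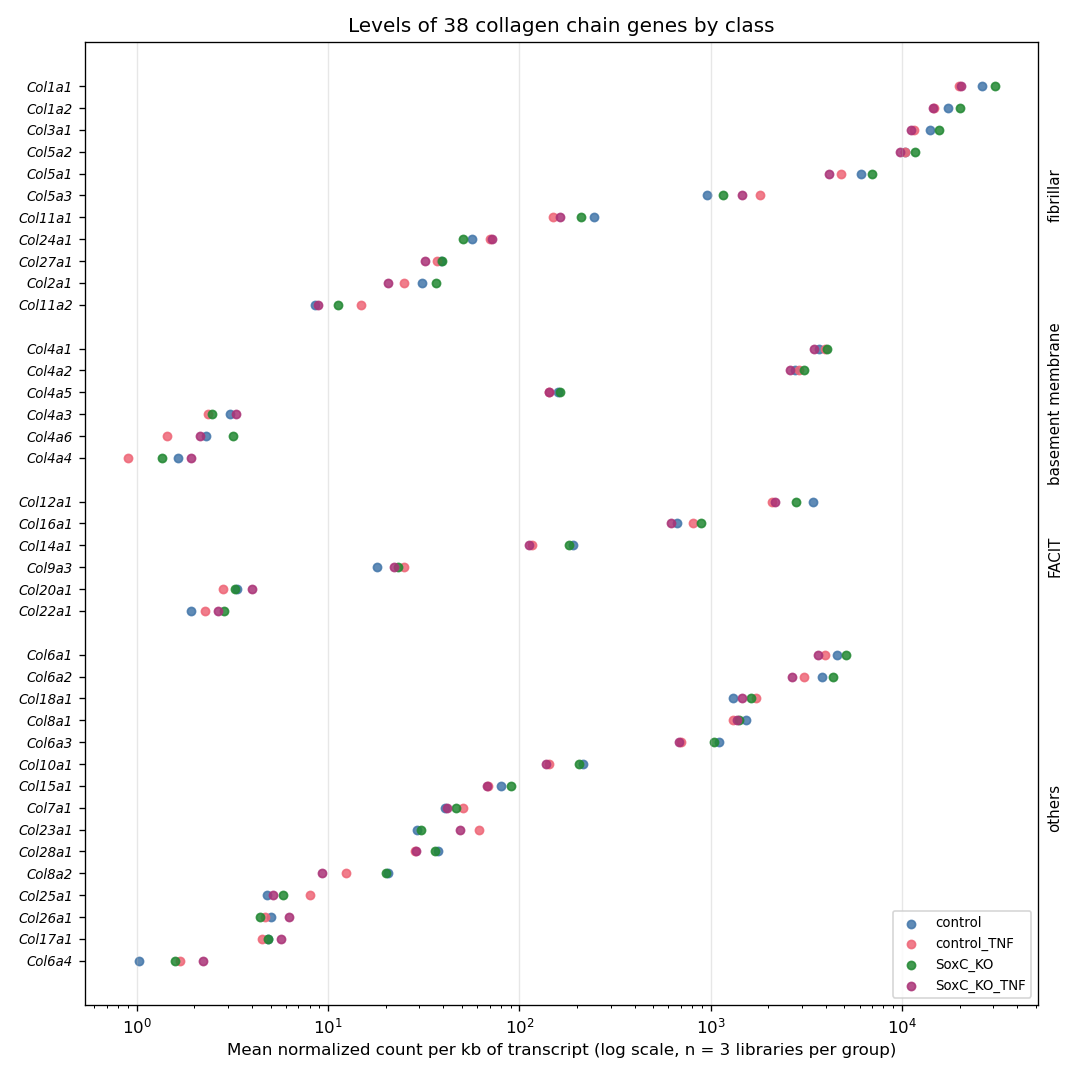
Mean normalized count per kb of transcript (horizontal axis, log scale) of the 38 tested collagen genes, ordered by level within each class; each point is the mean of 3 libraries of 1 group. The genes span from 1.45 per kb (Col4a4) to 24183 per kb (Col1a1) on average, and for most genes the 4 groups lie close together on this scale.

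For the average TNF effect, the planned fit called Col23a1 higher and Col10a1 lower. The blocked fit, which stands as an alternative, called 2 collagen genes higher and 9 lower. Some of its calls, Col1a1, Col3a1 and Col5a1 among them, were often lost when libraries were left out. In the limma fit with 1 mean per group, no collagen gene passed in control cells, where 0.32% of all genes did (0.287% higher and 0.0331% lower). None passed in knockout cells either, against 0.292% of all genes (0.243% higher and 0.0496% lower). At an unadjusted p under 0.05 there were 3 collagen genes in each, against 4.21% and 7.38% of all genes. For the average of both TNF comparisons, 2 of the 38 passed (1.17% of all genes did): Col23a1 rose (0.877% of all genes rose) and Col10a1 fell (0.292% fell). At an unadjusted p under 0.05 this average had 4 collagen genes and 8.17% of all genes. The blocked fit called 3 collagen genes in control cells (1.71% of all genes), with Col23a1 and Col5a3 higher (1.18%) and Col11a1 lower (0.529%). In knockout cells it called 4, Col2a1, Col5a1, Col6a2 and Col8a2, all lower (1% of all genes were lower), and 0 higher (1.78%), against 2.78% of all genes in either direction. The blocked fit called 11 of the 38 for the average TNF effect, or 28.9%, against 5.19% of all genes. Of these, 9 fell (2.18% of all genes fell) and 2 rose (3.01% rose). Those that fell were Col1a1, Col3a1, Col5a1 and Col11a1 of the fibrillar class, Col14a1 of the FACIT class, and Col6a2, Col6a3, Col8a2 and Col10a1 of the others, while Col5a3 and Col23a1 rose. With each library left out in turn, Col8a2, Col10a1, Col11a1, Col14a1 and Col23a1 stayed called in all 12 blocked fits, Col5a3 and Col6a3 in 11, Col5a1 in 6, Col6a2 in 5, and Col1a1 and Col3a1 in 3. The blocked count was 4 without the 4 libraries numbered 3, 8 without the 2 libraries with liver transcripts and 5 without the 2 with muscle transcripts, and Col5a3, Col8a2 and Col23a1 were called in all of these. Col1a1, Col3a1, Col5a1 and Col6a2 were called in none of them. Shares of all genes were not set beside these counts, so they show only which calls held.

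Median log2 changes on the scale of log2(normalized count + 1), averaged over both TNF comparisons, were -0.39 for the fibrillar class, -0.15 for the basement membrane class, -0.07 for FACIT genes and -0.09 for the others. Over all 18139 genes the median was -0.0011, with 9106 of them negative. Among the 38 collagen genes 25 were negative, 8 of 11 fibrillar genes among them. Of the 16 collagen genes with a mean of at least 1000, 14 were negative, with a median of -0.39, against 50.1% of the 4629 genes at that level. In the blocked fit 6 of these 16 fell, or 37.5%, against 3.02% of all genes at that level.

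**Figure D3:**
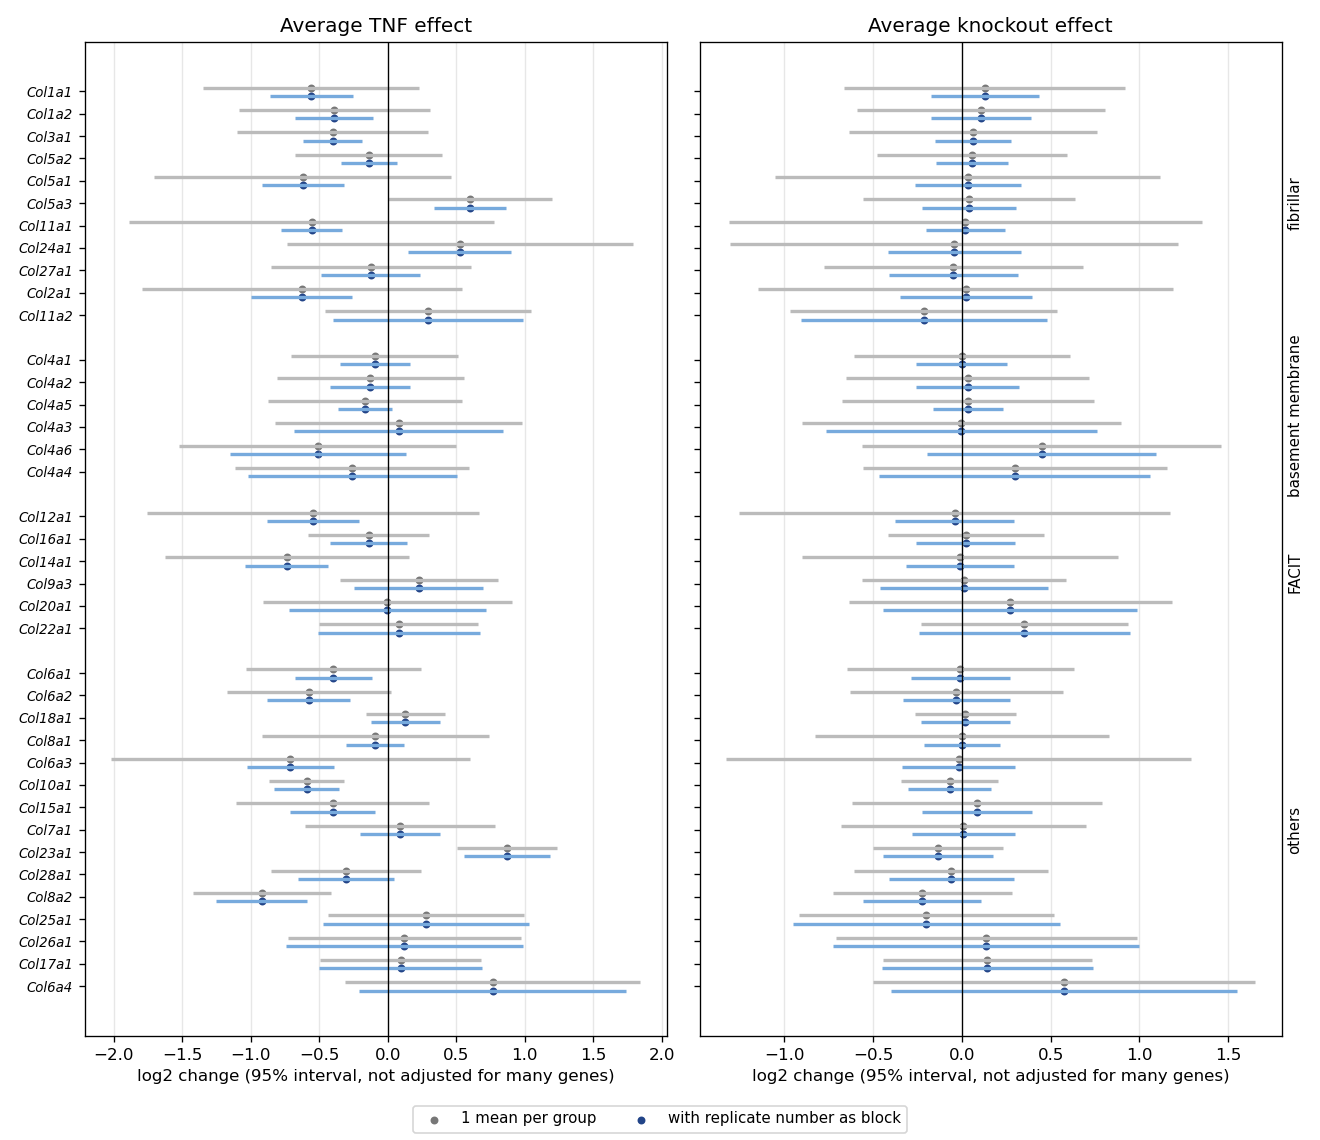
Log2 change of each tested collagen gene on the scale of log2(normalized count + 1), averaged over both TNF comparisons (left) and over both knockout comparisons (right); points are estimates and lines 95% intervals, not adjusted for the number of genes, in grey from the fit with 1 mean per group and in blue from the blocked fit. On the left Col8a2 is lowest at -0.92 and Col23a1 highest at 0.87, and on the right every interval includes 0.

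Type I collagen, the main fibril of bone, tendon and joint capsule, has 2 chains of Col1a1 for 1 of Col1a2. Col1a1 was at 200391, 187287 and 77152 normalized counts in control, 130600, 156310 and 65696 in control_TNF, 216838, 192661 and 133782 in SoxC_KO, and 149363, 161885 and 48918 in SoxC_KO_TNF (replicates 1, 2 and 3, as in all such lists below). Each TNF library was below the untreated library of its number, but the groups overlapped because of the libraries numbered 3. The average log2 change was -0.56, with an adjusted p of 0.929 with 1 mean per group and 0.0377 in the blocked fit. Col1a2 was at 116087, 112912 and 48779 in control, 85513, 102589 and 48397 in control_TNF, 123226, 115129 and 84330 in SoxC_KO, and 98986, 98358 and 36391 in SoxC_KO_TNF. It was also lower in each same-number pair, by less, and did not pass either fit (log2 change -0.39, blocked adjusted p = 0.129). The blocked call for Col1a1 was lost without any 1 of 9 libraries (all 6 control and control_TNF libraries, SoxC_KO replicates 1 and 3, and SoxC_KO_TNF replicate 1), with an adjusted p of up to 0.133.

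Col3a1, whose product forms thin fibrils and mixed fibrils with type I, was at 97738, 93085 and 42571 in control, 73978, 82856 and 36765 in control_TNF, 103190, 98347 and 58489 in SoxC_KO, and 74287, 80620 and 32098 in SoxC_KO_TNF. The pattern was that of Col1a1, lower with TNF in each pair and with overlapping groups. Its average log2 change was -0.40 (adjusted p = 1 with 1 mean per group, 0.0347 blocked), and the blocked call was lost without any of the same 9 libraries, with an adjusted p of up to 0.136.

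Type V chains split in direction. Col5a1, the chain present in nearly all type V molecules, was at 70856, 64354 and 18761 in control, 50300, 56032 and 15128 in control_TNF, 78856, 63446 and 33077 in SoxC_KO, and 41068, 52522 and 11724 in SoxC_KO_TNF. The libraries numbered 3 were far below the others in every group, and within each number the TNF library was lower. In the blocked fit it fell in knockout cells, by 0.90 on the log2 scale (adjusted p = 0.0287), and on average, by 0.62 (adjusted p = 0.0207), whereas with 1 mean per group the adjusted p was 0.814 and 1. The call on average was lost without control replicate 1 or 2, control_TNF replicate 1 or 3, SoxC_KO replicate 1 or SoxC_KO_TNF replicate 1, with an adjusted p of up to 0.082. In knockout cells it was lost without any 1 of 7 libraries, among them SoxC_KO and SoxC_KO_TNF replicates 1 and 3, with an adjusted p of up to 0.143.

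Col5a3 encodes the third type V chain, which has a narrower tissue range than the other two. Its normalized counts were 7617, 6487 and 3464 in control and 12949, 14020 and 6135 in control_TNF, and 8707, 7025 and 5685 in SoxC_KO and 9220, 11557 and 6066 in SoxC_KO_TNF. TNF libraries were higher in each same-number pair, most clearly in control cells, where only replicate 3 with TNF lay below an untreated library. The mean was 5856 ± 2147 in control and 11035 ± 4277 in control_TNF (SD, n = 3), and 7139 ± 1514 in SoxC_KO and 8948 ± 2755 in SoxC_KO_TNF. In the blocked fit it rose by 0.90 on the log2 scale in control cells (adjusted p = 0.0174) and by 0.60 on average (adjusted p = 0.0119). The change in knockout cells was 0.30 (adjusted p = 0.315), and the difference between the 2 changes, -0.60, did not pass (blocked adjusted p = 0.284). With 1 mean per group the average gave an adjusted p of 0.607. Without control replicate 2 the blocked average call was lost, with an adjusted p of 0.0523, and the call in control cells was lost without any 1 of 5 libraries, control replicates 1, 2 and 3 and control_TNF replicates 1 and 2, with an adjusted p of up to 0.133.

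The 250 bases before the start of Col5a3 are shown because it was the one fibrillar gene called higher in the blocked fit. They are from RefSeq (GRCm38.p6, chr9:20815068-20815317, minus strand), 5′ to 3′, with capitals marking matches to 2 promoter motifs, CCAAT (122 bases before the start) and the GC box GGGCGG in reverse complement (63 and 41 bases before it).
Col5a3: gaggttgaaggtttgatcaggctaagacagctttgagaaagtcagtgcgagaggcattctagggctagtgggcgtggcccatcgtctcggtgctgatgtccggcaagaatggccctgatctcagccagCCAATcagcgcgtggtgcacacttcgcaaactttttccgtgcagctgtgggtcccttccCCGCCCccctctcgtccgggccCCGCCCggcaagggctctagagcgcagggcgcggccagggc

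Col11a1, a chain of the thin fibrils of cartilage and also made by fibroblasts, was at 2464, 2623 and 535 in control, 1294, 1819 and 318 in control_TNF, 2080, 2182 and 545 in SoxC_KO, and 1689, 1625 and 414 in SoxC_KO_TNF. Each TNF library was lower than its untreated partner by number, and the libraries numbered 3 were far below the rest (ratio 0.230). The blocked fit called it lower in control cells (log2 change -0.74, adjusted p = 0.0227) and on average (-0.55, adjusted p = 0.00684). With 1 mean per group the average gave an adjusted p of 1. In control cells the blocked call was lost without control replicate 1, 2 or 3 or control_TNF replicate 1 or 3, with an adjusted p of up to 0.199. The average blocked call was lost without the 4 libraries numbered 3 (adjusted p = 0.053) and without the 2 with muscle transcripts (0.0517).

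Among the remaining fibrillar genes levels were low. Col2a1, the chain of cartilage type II collagen, was at 211, 211 and 49.3 in control, 177, 156 and 47.5 in control_TNF, 269, 193 and 98.8 in SoxC_KO, and 118, 163 and 31.7 in SoxC_KO_TNF. It was lower in each same-number pair and passed the blocked fit in knockout cells (log2 change -1.01, adjusted p = 0.0463) but not on average (-0.63, adjusted p = 0.0555), and the call in knockout cells remained in 2 of the 12 blocked fits with 1 library left out, with an adjusted p of up to 0.213 in the rest. Beside this, 5 chondrocyte markers summed to 2024 to 3100 in control and 1950 to 2293 in control_TNF, and to 3104 to 3681 in SoxC_KO and 1531 to 2257 in SoxC_KO_TNF. Comp made up most of that sum and Acan, the defining cartilage proteoglycan gene, was at 8.88 or less; the part of these cells in the result was not tested. Col11a2 was at 58.5, 54.7 and 24.3 in control, 102, 77.7 and 59.8 in control_TNF, 95.1, 29.4 and 57.7 in SoxC_KO, and 30.1, 42.9 and 71.0 in SoxC_KO_TNF. Its control_TNF libraries were all above its control libraries (4.6% of all genes were), those of the knockout overlapped, and it passed in no fit. Col24a1 was higher with TNF in all 6 pairs (range 86.4 to 727 over the libraries), Col5a2 (40418 to 88658) was lower in 4 of 6 and Col27a1 (147 to 452) in 5 of 6, and none of the 3 passed a test.

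Type IV collagen, the network of basement membranes, was led by Col4a1 and Col4a2, whose chains join in a ratio of 2 to 1. Col4a1 was at 30683, 28621 and 13800 in control, 28051, 33820 and 16331 in control_TNF, 29904, 28462 and 22154 in SoxC_KO, and 25515, 29995 and 12933 in SoxC_KO_TNF. It was lower with TNF in 3 pairs and higher in the other 3. Col4a2 followed it, at 22815, 21203 and 9247 in control, 19953, 24693 and 11180 in control_TNF, 22548, 20553 and 16581 in SoxC_KO, and 20140, 21686 and 8376 in SoxC_KO_TNF. The average TNF change was -0.10 for Col4a1 and -0.13 for Col4a2, with 95% intervals of -0.35 to 0.16 and -0.42 to 0.16 in the blocked fit. With 1 mean per group the intervals were -0.70 to 0.51 and -0.81 to 0.55, wide enough to hold the change of Col5a1 (-0.62). A miss of the threshold does not show that the levels were equal.

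The chains of Col4a3, Col4a4 and Col4a5 take part in the specialised membranes of kidney, lung and eye. These genes and Col4a6 were scarce here except for Col4a5. That gene was at 1329, 1250 and 550.4 in control, 1085, 1159 and 543 in control_TNF, 1276, 1328 and 607 in SoxC_KO, and 1048, 1172 and 566 in SoxC_KO_TNF, lower with TNF in each pair by a small step (log2 change -0.16, blocked adjusted p = 0.440). Col4a6 was at 19.9, 19.9 and 5.88 in control, 8.89, 14.5 and 5.27 in control_TNF, 32.0, 23.7 and 7.66 in SoxC_KO, and 23.6, 11.6 and 7.55 in SoxC_KO_TNF, also lower in each pair, with an average change of -0.51 that did not pass (blocked adjusted p = 0.474). Col4a3 and Col4a4 ranged from 8.05 to 45.3 and from 6.59 to 36.6, were lower with TNF in 3 and 4 of the 6 pairs, and passed no test. Col4a3 shares exonic bases with a more abundant gene on the other strand, given below, so its counts are uncertain. No basement membrane gene passed in any comparison in either fit.

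Among FACIT genes, Col12a1 and Col14a1 encode related fibril-surface collagens of dense connective tissue. Col12a1 was at 55769, 49788 and 12386 in control, 20043, 43353 and 8437 in control_TNF, 37868, 46034 and 12040 in SoxC_KO, and 36135, 29698 and 9463 in SoxC_KO_TNF. Every TNF library was below its partner by number, but by unequal steps in control cells, where the pair numbered 1 was farthest apart (log2 change on average -0.55, blocked adjusted p = 0.0666). Col14a1 was at 1346, 1448 and 447 in control, 611, 1040 and 340.0 in control_TNF, 1180, 1244 and 664 in SoxC_KO, and 820.5, 803 and 278 in SoxC_KO_TNF. It fell by 0.74 on average in the blocked fit (adjusted p = 0.00803, and 0.788 with 1 mean per group), and was called in all 12 fits with 1 library left out; without the 4 libraries numbered 3 the adjusted p was 0.053.

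Col16a1, a FACIT gene of skin and cartilage, was at 3994, 3920 and 2534 in control, 5274, 4519 and 2900 in control_TNF, 5157, 4163 and 4500 in SoxC_KO, and 3050, 4209 and 2417 in SoxC_KO_TNF. It was higher with TNF in all 3 control pairs and lower in 2 of the 3 knockout pairs, and no change or difference of changes passed. Col22a1, whose product sits at tissue junctions, stayed between 11.8 and 32.9: 18.3, 20.5 and 11.8 in control, 18.7, 23.8 and 17.6 in control_TNF, 31.0, 15.8 and 28.7 in SoxC_KO, and 18.1, 32.9 and 19.2 in SoxC_KO_TNF. Those groups overlapped in every comparison. Col9a3 (36.5 to 101) and Col20a1 (4.27 to 28.9) passed no test either.

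Type VI collagen forms beaded filaments from chains of Col6a1, Col6a2 and usually Col6a3. Col6a1 was at 22700, 22473 and 11309 in control, 18388, 19665 and 10909 in control_TNF, 23338, 22198 and 17071 in SoxC_KO, and 19171, 18696 and 6947 in SoxC_KO_TNF. Col6a2 was at 17960, 17665 and 9618 in control, 13340, 14590 and 8388 in control_TNF, 19437, 16932 and 15384 in SoxC_KO, and 13651, 12716 and 4984 in SoxC_KO_TNF. Both were lower with TNF in each pair, and for Col6a2 the 3 SoxC_KO_TNF libraries all lay below the 3 SoxC_KO libraries, as for 6.4% of all genes. The blocked fit called Col6a2 lower in knockout cells (log2 change -0.85, adjusted p = 0.0401) and on average (-0.58, adjusted p = 0.0325, and 0.662 with 1 mean per group), while Col6a1 changed by -0.40 on average (blocked adjusted p = 0.115). The average call for Col6a2 was lost without any control or control_TNF library or SoxC_KO replicate 1 (adjusted p of up to 0.109), and the call in knockout cells remained in 2 of the 12 fits with 1 library left out (up to 0.148).

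Col6a3 was at 14830, 12312 and 2845 in control, 6287, 10635 and 2059 in control_TNF, 11643, 12312 and 4056 in SoxC_KO, and 8704, 8165 and 1610 in SoxC_KO_TNF. Like Col12a1 and Col11a1 it was several times lower in the libraries numbered 3, and lower with TNF in each pair. The blocked fit gave an average log2 change of -0.71 (adjusted p = 0.014, and 1 with 1 mean per group). The call was lost without control replicate 1, with an adjusted p of 0.0583, and without the 4 libraries numbered 3, with 0.113. Col6a4, a chain that can stand in for Col6a3, was near the filter at 6.37, 14.5 and 1.80 in control, 13.9, 17.4 and 5.78 in control_TNF, 20.5, 3.95 and 10.7 in SoxC_KO, and 18.1, 17.2 and 13.98 in SoxC_KO_TNF. Its libraries overlapped, and it passed no test.

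Short-chain collagens form hexagonal lattices. Col8a2, of type VIII, was at 112, 90.3 and 64.3 in control, 68.9, 50.7 and 42.1 in control_TNF, 107, 82.9 and 72.4 in SoxC_KO, and 46.6, 48.1 and 25.8 in SoxC_KO_TNF. In knockout cells all TNF libraries lay below all untreated ones (6.4% of all genes did), while in control cells 1 TNF library was above 1 untreated library. It fell by 0.92 on the log2 scale on average, the largest fall among the 38 collagen genes in the blocked fit. In the blocked fit the adjusted p was 0.00339 on average and 0.0154 in knockout cells (log2 change -1.13), and with 1 mean per group 0.0998 and 0.298. The average call remained in all 12 blocked fits with 1 library left out (adjusted p of up to 0.0186). In knockout cells it was lost without replicate 1 or 3 of SoxC_KO or SoxC_KO_TNF (up to 0.0818). Its partner Col8a1, far more abundant at 3403 to 9950, was lower with TNF in 5 of 6 pairs with an average log2 change of -0.09 that did not pass.

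Col10a1, known as the collagen of hypertrophic cartilage, was at 689, 647 and 687 in control, 431, 509.6 and 407 in control_TNF, 665, 669 and 598 in SoxC_KO, and 366, 440.2 and 480.3 in SoxC_KO_TNF. The groups without and with TNF did not overlap in control cells (4.11% of all genes were lower without overlap) or in knockout cells (6.4%), and unlike most collagen genes it did not differ in the libraries numbered 3. The mean was 674 ± 23.7 in control and 449 ± 53.8 in control_TNF, and 644 ± 40.0 in SoxC_KO and 429 ± 58.2 in SoxC_KO_TNF (SD, n = 3). It fell by 0.59 on the log2 scale on average, with an adjusted p of 0.0493 with 1 mean per group and 0.00621 blocked, and by 0.59 in control cells and by 0.59 in knockout cells, where neither passed either fit. Leaving out any 1 library other than SoxC_KO replicate 3 ended the call with 1 mean per group, with an adjusted p of up to 0.341 over all alternatives, whereas the blocked call remained in all 12 such fits (up to 0.0342) and ended without the 2 libraries with muscle transcripts (0.0694). Marker sums of other skeletal and vessel wall cells were also lower with TNF in all 6 same-number pairs. The sum of 4 osteoblast markers was 61.7, 63.5 and 35.7 in control, 29.5, 39.6 and 16.4 in control_TNF, 49.3, 91.5 and 56.9 in SoxC_KO, and 39.5, 40.6 and 18.4 in SoxC_KO_TNF. The sum of 5 pericyte and smooth muscle markers was 2100 to 3740 in control, 1918 to 3059 in control_TNF, 3094 to 3350 in SoxC_KO and 1862 to 2701 in SoxC_KO_TNF, and the chondrocyte sum given with Col2a1 was lower in each pair too. Single markers did not all follow these sums. Of the osteoblast markers Sp7, the only 1 of the 4 that passed the filter, was lower in each pair, and Bglap, Ibsp and Dmp1 went both ways. Of the pericyte and smooth muscle markers Myh11 and Des were lower in each pair, and Rgs5, Cspg4 and Notch3 went both ways. Among the chondrocyte markers Comp was lower in each pair, and Acan, Matn3, Hapln1 and Sox9 went both ways. Over all genes, 5.33% were lower in every pair. No marker of these 3 lists passed in the TNF or average comparisons with 1 mean per group, and the part of such cells in the result was not tested. Col10a1 lies within Nt5dc1, a gene on the opposite strand at 125 to 235 normalized counts, and shares 18 exonic bases with it. Use of strand in counting was not given in the sources used here, so reads of the pair in that stretch cannot be told apart.

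The 250 bases before the Col10a1 start, shown because the gene passed in both fits, come from RefSeq (GRCm38.p6, chr10:34389731-34389980, plus strand), 5′ to 3′. Capitals mark a TATA box motif, TATAAA, that begins 32 bases before the start.
Col10a1: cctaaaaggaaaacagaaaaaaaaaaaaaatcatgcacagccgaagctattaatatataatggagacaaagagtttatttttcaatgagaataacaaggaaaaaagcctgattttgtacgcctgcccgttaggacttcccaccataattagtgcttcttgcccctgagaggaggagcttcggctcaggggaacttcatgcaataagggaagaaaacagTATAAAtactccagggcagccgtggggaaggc

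Col23a1, a transmembrane collagen, was at 128, 187 and 179.9 in control, 372, 391 and 286 in control_TNF, 171, 163 and 183 in SoxC_KO, and 259, 351 and 221 in SoxC_KO_TNF. All 6 TNF libraries were above all 6 untreated libraries. The groups did not overlap in control cells, as for 4.6% of all genes in this direction, or in knockout cells (6.43%). Means were 165 ± 32.5 and 349.8 ± 56.1 in control without and with TNF, and 172 ± 10.4 and 277 ± 66.6 in the knockout (SD, n = 3). It rose by 0.87 on average (adjusted p = 0.0300 with 1 mean per group, 0.00322 blocked), and in the blocked fit by 1.09 in control cells (adjusted p = 0.0155), while in knockout cells the change was 0.66 (adjusted p = 0.114). The average call with 1 mean per group remained without any 1 of the libraries numbered 3 and ended without any 1 of the other 8 (adjusted p of up to 0.183), and the blocked call remained in all 12 such fits (up to 0.0152). In control cells the blocked call was lost without replicate 1 or 2 of control or control_TNF (up to 0.156).

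The window before Col23a1, the gene with the largest rise, is from RefSeq (GRCm38.p6, chr11:51289670-51289919, plus strand), 250 bases from 5′ to 3′, and holds 1 GC box in reverse complement, in capitals, 11 bases before the start and no TATAAA or CCAAT.
Col23a1: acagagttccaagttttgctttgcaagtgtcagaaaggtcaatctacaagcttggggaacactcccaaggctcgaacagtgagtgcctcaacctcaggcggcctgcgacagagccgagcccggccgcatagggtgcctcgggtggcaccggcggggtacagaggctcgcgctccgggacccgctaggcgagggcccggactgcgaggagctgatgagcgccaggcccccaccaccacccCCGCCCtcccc

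Windows of the same length were in the RefSeq table for 29 of the 38 tested genes. On both strands, the kappa B motif by name was found in 2 of the 29, Col27a1 and Col6a4, against 4.45% of 26994 genes, and the AP-1 motif TGANTCA in 1, Col6a1, against 7.82%. The SOX motif AACAAT was found in 1, Col3a1, against 10.9%, and TATAAA in 4 (Col3a1, Col10a1, Col11a2 and Col17a1) against 14.3%. CCAAT was in 12 of the 29 (37.5% of all genes) and GGGCGG in 18 (35.3%). A match is a description of letters, and no match says only that these letters are not in this window.

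The remaining genes of the mixed class passed no test. Col18a1 and Col15a1, multiplexins found near basement membranes, were at 6006 to 9833 and 164 to 517. Col18a1 was higher in all control_TNF libraries than in all control libraries (4.6% of all genes), and lower in all SoxC_KO_TNF than in all control_TNF libraries (2.34% of all genes). Col7a1, the anchoring fibril of skin, was at 206 to 642, and Col28a1 at 76.3 to 205. Col17a1, Col25a1 and Col26a1 stayed at 39.5 or less in every library.

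**Figure D4:**
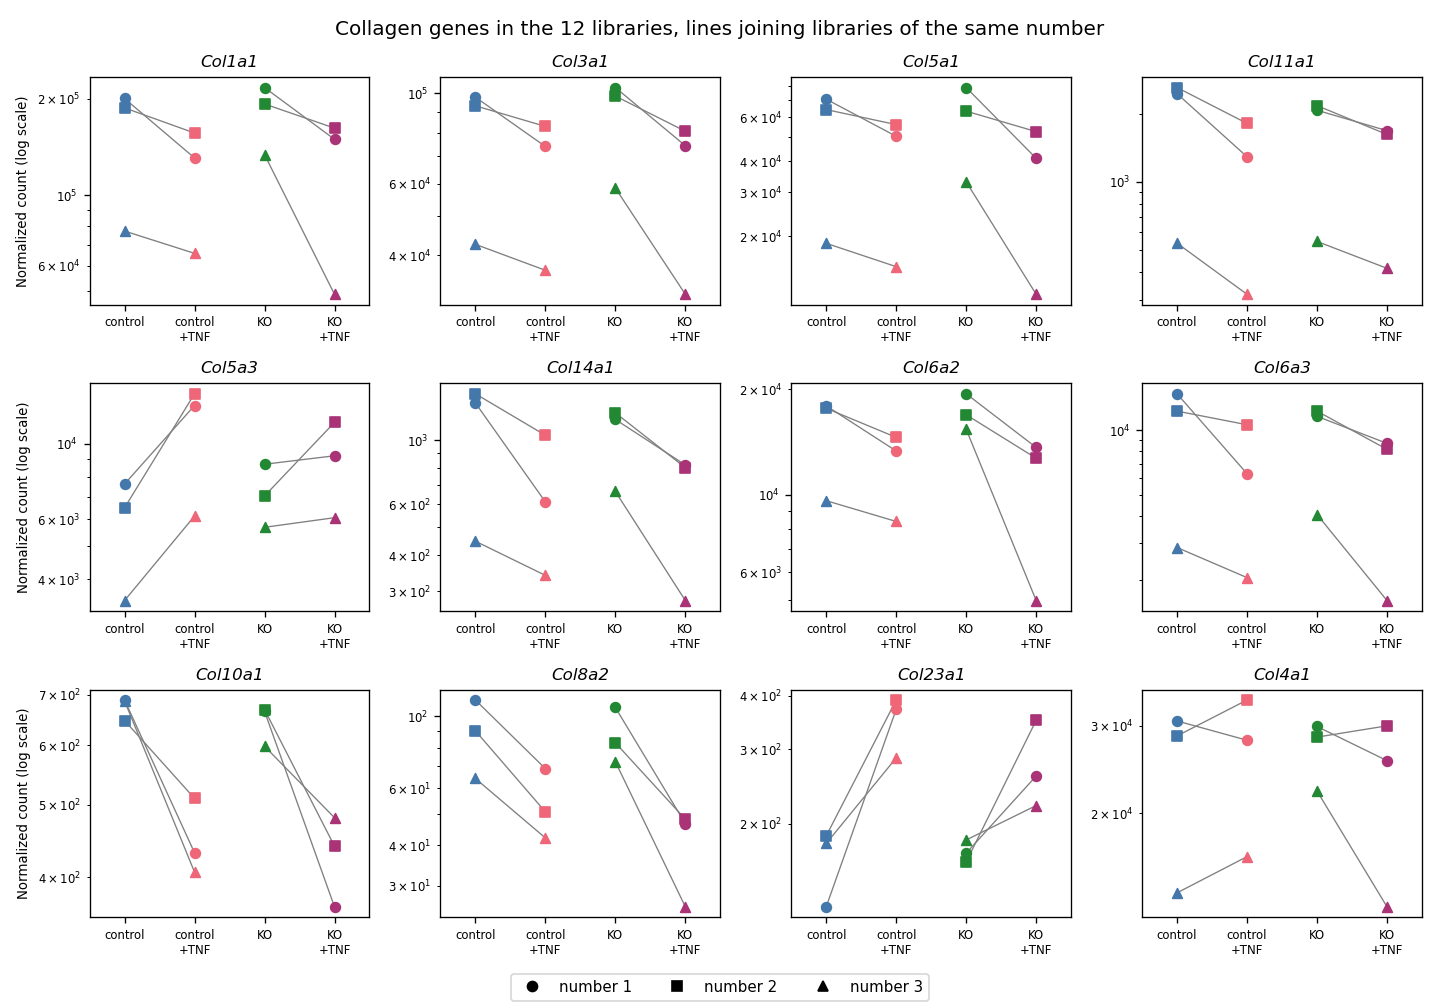
Normalized counts (vertical axes, log scale) of 12 collagen genes in every library; the symbol gives the replicate number, the colour the group, and lines join the untreated and TNF libraries of the same cells and number. The lines slope down in all 6 pairs for Col1a1, Col3a1, Col5a1, Col11a1, Col14a1, Col6a2, Col6a3, Col10a1 and Col8a2, slope up in all 6 for Col5a3 and Col23a1, and go both ways for Col4a1.

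Counted over the 6 pairs of libraries with the same cells and number, 15 of the 38 collagen genes were lower with TNF in every pair, or 39.5%, against 5.33% of all genes. They were Col1a1, Col1a2, Col2a1, Col3a1, Col5a1 and Col11a1 of the fibrillar class, Col4a5 and Col4a6 of the basement membrane class, Col12a1 and Col14a1 of the FACIT class, and Col6a1, Col6a2, Col6a3, Col8a2 and Col10a1. Col5a3, Col23a1 and Col24a1 were higher in every pair, 3 of 38 or 7.89%, against 4.91%. Among genes with a mean of at least 1000, 9 of 16 collagen genes were lower in every pair (6.37% of all at that level). Without the 4 libraries numbered 3 the count was 18 of 38, over 4 pairs, where 11.2% of all genes were lower. It was 16 without the 2 libraries with liver transcripts, over 4 pairs (8.95% of all genes were lower). Without those with muscle transcripts it was 15, over 5 pairs (7.001%). With every library scaled to the same total it was 13, over 6 pairs (5.27%), and Col4a5 and Col4a6 left the list. With fewer pairs, more of all genes were lower in every pair. The genes share their libraries, so these counts are not of independent events.

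Ratios between chains within a library, per kb, do not depend on the library's scaling, and 7 of the 8 computed are within 1 collagen type (the other is Col3a1 per Col1a1). With 3 libraries against 3, an exact test of a ratio cannot go below p = 0.1, and the ratios are described by their values. Col5a3 per Col5a2 was 0.0998, 0.0873 and 0.0875 in control and 0.182, 0.183 and 0.144 in control_TNF, and 0.106, 0.0904 and 0.104 in SoxC_KO and 0.134, 0.157 and 0.163 in SoxC_KO_TNF. The TNF groups lay above the untreated groups with no overlap in both kinds of cell, with means 1.86 and 1.51 times higher, and the libraries numbered 3 were apart from the others only in control_TNF, where theirs was the lowest. Col5a1 per Col5a2 was lower in each pair, with means 0.792 and 0.68 times those without TNF, and overlapped.

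Col6a1 per Col6a2 was higher with TNF with no overlap in control (1.13 to 1.23 without, 1.25 to 1.33 with) and in the knockout (1.07 to 1.26 and 1.34 to 1.42), a small step of 1.08 and 1.18 times. It was also higher in SoxC_KO_TNF than in control_TNF with no overlap, by a narrow margin, the only ratio of the 8 that separated control from knockout cells. Col6a3 per Col6a1 was lower in each pair and was 0.086 to 0.115 in the libraries numbered 3 against 0.156 to 0.298 in the rest. Col6a3 has the longer transcript, and the part of length in this ratio was not tested. Col1a1 per Col1a2 was 1.43 to 1.56 in control and 1.22 to 1.38 in control_TNF, with no overlap, and 1.43 to 1.59 and 1.21 to 1.48 in the knockout, with overlap. Col4a1 per Col4a2 stayed from 1.24 to 1.51 over all libraries and went up in 3 pairs and down in 3. Col8a1 per Col8a2 was 73.2, 93.5 and 48.9 in control, 86.1, 162 and 68.7 in control_TNF, 67.0, 100.1 and 39.8 in SoxC_KO, and 149, 152 and 138 in SoxC_KO_TNF. It was higher with TNF in each pair, with means 1.47 and 2.12 times higher, and did not overlap in knockout cells. Col3a1 per Col1a1 was higher in 5 of 6.

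**Figure D5:**
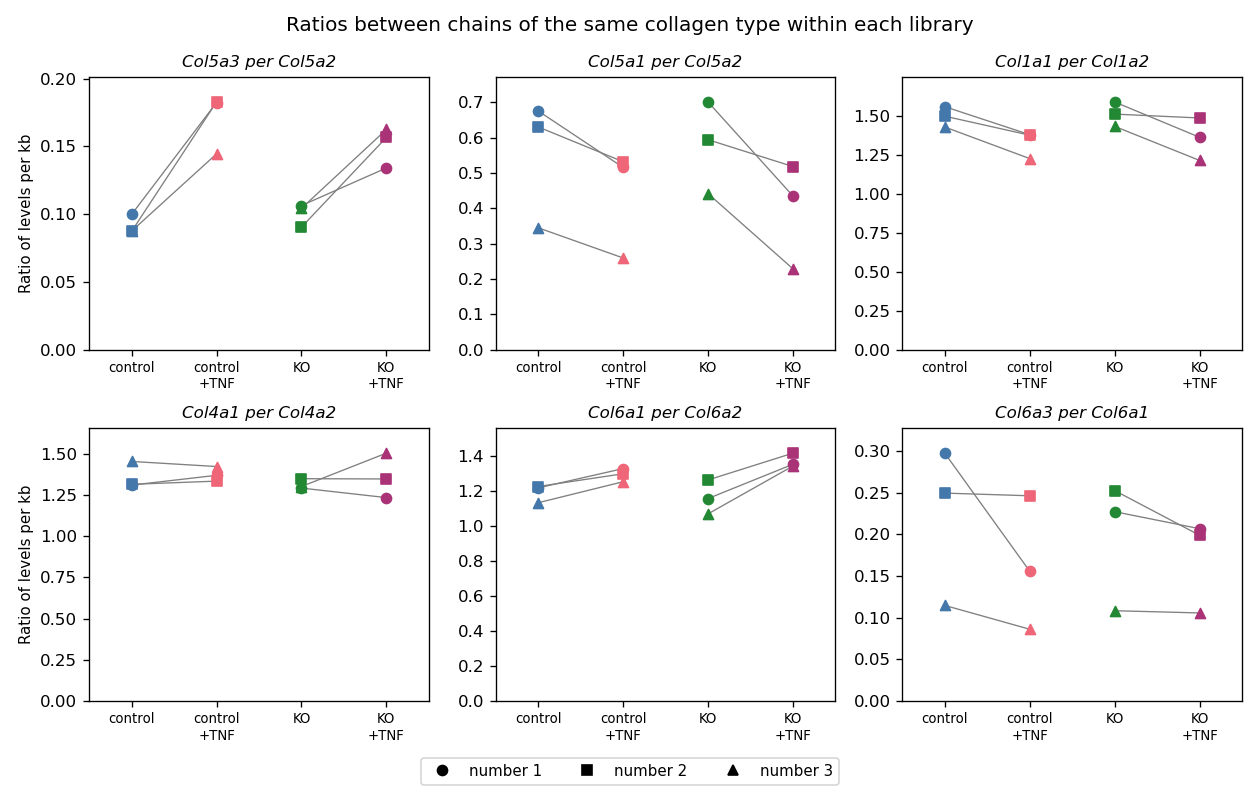
Ratios of levels per kb between chains of the same collagen type in each library (vertical axes from 0); symbols give the replicate number and lines join untreated and TNF libraries of the same cells and number. Col5a3 per Col5a2 lies from 0.0873 to 0.106 without TNF and from 0.134 to 0.183 with it, while Col4a1 per Col4a2 stays from 1.24 to 1.51.

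The knockout was not followed by a change that passed in any collagen gene. With 1 mean per group, limma called 0 of 38 without TNF, 0 with TNF and 0 on average, and it called 0% of all genes in each. At an unadjusted p under 0.05 there were also 0 collagen genes in each, against 0.97%, 1.28% and 0.772% of all genes. The blocked fit called 0 of 38 in each too, with 0.00551% of all genes called for the average (1 gene). At an unadjusted p under 0.05 it gave 1, 0 and 0 collagen genes, against 4.55%, 6.4% and 1.62% of all genes. No collagen gene was higher in all 6 knockout comparisons of same-numbered libraries (0.651% of all genes) or lower in all 6 (0.855%). The numbers did not meet the check for pairs between control_TNF and SoxC_KO_TNF, so there these counts and the blocked fit compare libraries that share only a number. The median of the average knockout effect was 0.02 over the 38 genes.

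Intervals show how much of a knockout effect the design leaves room for. For Col1a1 the average log2 change was 0.13, with a 95% interval of -0.66 to 0.92 with 1 mean per group and -0.18 to 0.43 blocked. The genes with the smallest unadjusted p in their class were Col11a2 (-0.21, blocked interval -0.91 to 0.48), Col4a6 (0.45, -0.20 to 1.09), Col22a1 (0.35, -0.24 to 0.95) and Col6a4 (0.57, -0.40 to 1.55). These were all at low counts, where the blocked intervals are widest. With 1 mean per group abundant genes had wide intervals too, such as Col6a3 (-1.33 to 1.29) and Col12a1 (-1.25 to 1.17). Without TNF, the 3 SoxC_KO libraries of Col16a1 were all above the 3 control libraries (2.39% of all genes).

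The interaction asks whether the TNF change differed between control and knockout cells. It passed for 0 of the 38 collagen genes in either fit, with 0% of all genes called, and at an unadjusted p under 0.05 for 0 with 1 mean per group (1.51% of all genes) and 4 in the blocked fit (17.2%). For Col23a1 the TNF change was 1.09 in control and 0.66 in knockout cells, and for Col5a3 0.90 and 0.30, and neither difference passed (blocked adjusted p = 0.411 and 0.284). The fibrillar median was 0.30 for the knockout without TNF and -0.10 with TNF, and -0.38 for the interaction, where scaling every library to the same total moves the median of all genes by 0.10. Beside this, SoxC_KO replicate 3 had the highest collagen share of the 4 libraries numbered 3 (2.09%, against 1.21% to 1.46%), and its part in these medians was not tested.

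Genes that make, bind and cut collagen were listed beside the chains. Of 35 collagen biosynthesis genes (prolyl and lysyl hydroxylases, chaperones, propeptide proteases and cross-linking enzymes), 32 were tested, and with 1 mean per group none passed in any comparison. The blocked fit called 2 of the 32 higher (3.01% of all genes were) and 0 lower (2.18%) for the average TNF effect, Adamts14, which trims procollagen (mean 291 and 660 in control without and with TNF, 306 and 538 in the knockout, log2 change 0.96, adjusted p = 4.57e-04), and P3h2, a prolyl hydroxylase (305 and 427, 294 and 474, log2 change 0.59, adjusted p = 0.028). The median of the list on average was -0.13. Of 9 collagen receptors tested none passed with 1 mean per group, and the blocked fit called 3 (5.19% of all genes), 1 higher and 2 lower. Itga11 fell on average (4090 and 2078 in control, 4171 and 2181 in the knockout, adjusted p = 0.00109), as did Itga1 (1368 and 666, 1159 and 880, adjusted p = 0.00708), and Itga2 rose (98.0 and 187, 86.5 and 246, adjusted p = 8.80e-04). These encode the integrin chains that pair with integrin beta 1 to bind collagen.

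Of 10 enzymes that cut collagen, 4 rose with TNF on average with 1 mean per group (0.877% of all genes rose), 0 fell (0.292%) and 6 did not pass. Mmp9, which cuts denatured collagen and type IV, had a mean of 325 in control and 2830 in control_TNF, and of 372 in SoxC_KO and 2545 in SoxC_KO_TNF (log2 change 2.90, adjusted p = 1.90e-04). Mmp13, a collagenase of intact fibrils, had 9146 and 22627 in control, and 8055 and 27268 in the knockout (1.54, adjusted p = 0.00101). Mmp1a and Mmp1b also rose, from means of 8.82 and 26.0 in control to 44.2 and 128 in control_TNF, and from 9.48 and 18.1 in SoxC_KO to 72.2 and 162 in SoxC_KO_TNF. They are close copies whose reads the counting may have split, so their separate values are uncertain.

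Several chain genes lie next to each other. Col4a1 and Col4a2 are transcribed in opposite directions and overlap by 22 bases at their starts on chromosome 8. Col4a3 and Col4a4 lie head to head on chromosome 1, 71 bases apart. Col4a5 and Col4a6, also head to head, are 1308 bases apart on chromosome X, with means over all libraries of 993 and 15.04 normalized counts. Col3a1 and Col5a2 lie 24614 bases apart on chromosome 1. There Col3a1 was lower with TNF in all 6 pairs and Col5a2 in 4. All 44 genes were found in the GENCODE M21 annotation of GRCm38 with the same start and end, and 10 share exonic bases with a gene on the other strand, Col5a1 among them, which shares 113 bases with Gm13372 (41.6 to 298 normalized counts). Col9a3 shares 234 bases with Tcfl5. Col4a3 shares 563 bases with C430014B12Rik, which was at 81.7 to 190 normalized counts, against 8.05 to 45.3 for Col4a3. Use of strand in counting was not given, so reads of such a pair in the shared stretch cannot be told apart.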

How the data were processed

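Poly(A) RNA of 12 libraries was analysed from 1 deposited table of log2 normalized values, per the file headers. The submitters' processing notes name mm10 as the build and list DESeq; the aligner, annotation and strandedness were not given in the sources used here. In this table the authors' log2 values carry no pseudocount and list values at or under 1 as 0, so they were turned back to linear normalized counts, since the planned test assumed a linear scale. Whole reads could not be recovered, which left out count models; depth per library is known only roughly, at an estimated 8.14 to 13.7 M read pairs.

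Values were analysed as log2(normalized count + 1), which understates changes of low genes. Limma 3.58.1 (R 4.3.3) was run on the 12 libraries together, two-sided and with an intensity trend, with Benjamini-Hochberg adjustment over 18139 genes and a threshold of 0.05, for 7 comparisons, and was tested on simulated data. The collagen genes and the lists of other genes were chosen with earlier results of these data known. Values in every library are given for members called in either fit, the 3 most abundant of each class, and the 1 with the smallest p for TNF and for the knockout in each class.

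Deviations of same-number libraries from their group means correlated above the cutoff of 0.1, in places barely, in 3 comparisons. These were control with control_TNF (r = 0.103, 0.550 and 0.715), SoxC_KO with SoxC_KO_TNF (0.340, 0.148 and 0.501) and control with SoxC_KO (0.457, 0.515 and 0.707). For control_TNF with SoxC_KO_TNF the first was 0.0537, under the cutoff of 0.1, so for the knockout with TNF the numbers are not taken as pairs. The block is shared by all 4 groups, so this weak match also enters the spread used in every other blocked comparison. The planned test had no block, and all blocked values stand only as an alternative to it. The pairing comes from the numbers in the sample titles. The libraries numbered 3 stand apart in all groups, and the check cannot tell true pairs from that. Lengths are of GENCODE M21 principal transcripts; figures used Python 3.11.15 and matplotlib 3.10.9. Alternatives were other filters, pseudocounts, scaling, a fit of the compared groups alone, no intensity trend, the replicate block, and libraries left out.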

Additional observations from a re-analysis of the deposited data

How the results depend on the processing

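The count of collagen genes called for the average TNF effect, 2 with 1 mean per group, was 0 without the filter on low values, 1 with equal totals, 1 without the intensity trend, and 0 to 2 with 1 library left out. It was 8 without the 4 libraries numbered 3, 0 without the 2 libraries with liver transcripts and 0 without the 2 with muscle transcripts. Without the libraries numbered 3 the count for TNF in control cells was 2. The last omission and all blocked fits with libraries left out were chosen after seeing the data. Causes of these changes were not tested. Shares of all genes called with settings changed or libraries left out were not set beside the counts, here and in the next paragraph. The counts therefore show how far calls held, not how collagen genes compare with other genes. Counts for the knockout and the interaction stayed at 0 under every alternative run.

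With the replicate block the counts were 11 for the average TNF effect, 3 for TNF in control cells and 4 for TNF in knockout cells. Combined with leaving out the libraries numbered 3 they were 4, 1 and 0, without the liver libraries 8, 1 and 0, and without the muscle libraries 5, 1 and 0. With 1 library left out they were 6, 7, 8, 9, 11 or 12, from 0 to 3 and from 0 to 10. The block changed no other count.

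The number of genes higher with TNF in every same-number pair was 3 (4.91% of all genes). It ranged from 3 to 5 with 1 library left out (5.69% to 7.81%), with 5 without replicate 1 of SoxC_KO or SoxC_KO_TNF. It was 5 without the liver libraries (8.005%) and 5 without the muscle libraries (6.301%). The number lower ranged from 15 to 18 with 1 library left out, against 6.45% to 8.51% of all genes.

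With 1 library left out, log2 changes with 1 mean per group that changed sign ranged as follows. For TNF in control cells they were -0.95 to 0.27 for Col5a1, -0.94 to 0.35 for Col2a1, -0.65 to 0.10 for Col3a1, -1.39 to 0.025 for Col6a3, -1.48 to 0.020 for Col11a1 and -0.81 to 0.0035 for Col1a1. For TNF in knockout cells they were -1.30 to 0.014 for Col6a3 and -1.03 to 0.29 for Col11a1. The average TNF effect ranged from -0.28 to 0.087 for Col4a1, -0.34 to 0.091 for Col4a2, -0.37 to 0.0099 for Col4a5 and -0.065 to 0.17 for Col22a1. The average knockout effect ranged from -0.093 to 0.41 for Col1a1, which was -0.069 without the muscle libraries, and from -0.41 to 0.00334 for Col11a2. Depth limits the genes under 100 normalized counts most.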
